A study of Mus musculus with 8 samples.

Results

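The change of IP enrichment with restraint is the log2 ratio of pS6 IP over input in restrained mice less the same ratio in naive mice, taken gene by gene from all 8 libraries of the study. Each gene's change is the sum of its rise in the IP and its fall in the input, so every result below is split into these parts. In PhosphoTrap, an antibody against phosphorylated ribosomal protein S6 (pS6) pulls down ribosomes, and the RNA attached to them (the IP) is sequenced beside RNA of the whole lysate (the input). Naive mice and restraint-stressed (RS) mice each gave 2 input and 2 IP libraries, which form 4 groups, from septa of C57Bl/6J mice. Naive mice stayed in the home cage. RS mice were immobilised for 1 h in a flexible cone, and the labels place their death 1 h after its end, whereas the study's methods give no such interval. The labels name no agent, transgene or surgery for any group. Each library stems from a pool of 4 to 6 mice, so single mice cannot be seen, and n is the number of pools. The labels speak of 3 pools a group, of which 2 were analysed here.

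Phosphorylation of S6 follows neuronal firing, through kinases of the ERK and mTOR pathways that are switched on in active cells. RNA of cells whose activity rises is therefore gathered by the antibody, and an RNA confined to such cells gains in IP over input even if its amount in the tissue stays the same. The ratio has a numerator and a denominator, and a fall of an RNA in the input lifts it as much as a rise in the IP does. The lateral septum consists mainly of inhibitory neurons that bear many neuropeptides, and it is known for its part in stress, anxiety and feeding.

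All values are TPM, each a share of all transcripts counted in a library, analysed as log2(TPM + 1), and changes and ratios are log2 values on this scale unless TPM is named. Folds of low genes are understated on it. The number of reads behind a TPM is unknown. Between 13089 and 13750 genes reached 1 TPM in a library, and 93 to 145 of the 14365 genes tested had pools more than 2-fold apart within a group. The median of all genes was a change of enrichment of -0.11, made of 0.01 in the IP and 0.13 in the input. A median-of-ratios scaling moved the median of the change of enrichment to 0.01, so the medians of gene lists are given less the median of all genes.

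Restraint changed the enrichment of 970 genes at an adjusted p under 0.05 (limma, Benjamini-Hochberg over all 14365 genes), or 6.75%. Enrichment rose for 473 genes (3.29%) and fell for 497 (3.46%), and it moved at least 2-fold for 69 and 49 of them. A further count gives the strength of these calls: 3791 genes had an unadjusted p under 0.05, the median adjusted p of the called genes was 0.033, and 27 genes had one under 0.01. In the IP alone, RS raised 285 genes (1.98%) and lowered 47 (0.327%). In the input alone, RS raised 2917 genes (20.3%) and lowered 1179 (8.21%). The input thus held 4096 called genes against 332 in the IP, from the same 14365. Counts of called members in the gene lists below are to be read beside these shares.

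With all libraries, most of the called changes of enrichment lay in the input. A called gene was taken as carried by the IP where its IP change was at least 2 times the size of its input change, as carried by the input where the reverse held, and as shared otherwise. By this rule 748 of the 970 genes (77.1%) were carried by the input, 77 (7.94%) by the IP, and 145 (14.9%) were shared. Among all genes tested, called or not, the same sizes gave 48.0% for the input, 16.0% for the IP and 36.0% shared. Of the genes with higher enrichment, 358 had fallen in the input, 58 had risen in the IP and 57 were shared. Of those with lower enrichment, 390 had risen in the input, 19 had fallen in the IP and 88 were shared. The shared genes mostly moved apart, with opposite signs in IP and input for 47 of the 57 and 86 of the 88. By the tests of each part, 843 of the 970 genes were called in the input alone, 48 in the IP alone, 43 in both and 36 in neither.

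**Figure D1:**
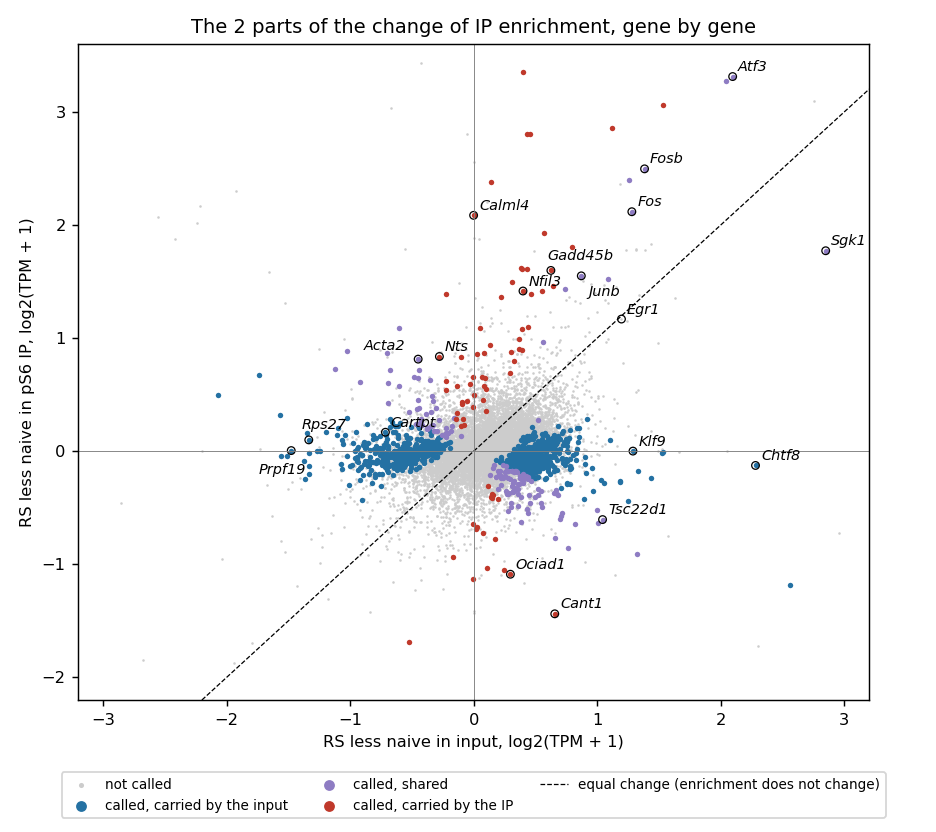
Change from naive to RS in the input (x axis) and in the pS6 IP (y axis), as differences of log2(TPM + 1), with 1 point a gene for 14342 genes; 23 genes lie outside the axes. The called genes form 2 wings along the x axis, where the IP moved little, and a smaller set along the y axis that holds Nts, Gadd45b and Nfil3; on the dashed line IP and input change alike, as for Egr1.

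A rise in the IP and a rise of enrichment were often not the same. Of the 285 genes that rose in the IP, 70 also rose in enrichment. Of the 332 genes called in the IP, 241 were not called in enrichment, and 236 of these moved the same way in the input. For 62 called genes the ratio was called in naive and in RS mice with opposite signs: 34 went from depleted to enriched and 28 from enriched to depleted. Fos, Nfil3, Per1, Acta2 and Prpf19 were among the first kind, and Tsc22d1, Rasd1 and Rap2b among the second.

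The number of calls rested heavily on single libraries. Without naive input pool 1, 25 genes were called higher and 14 lower, and without naive input pool 2, 16 and 8. Leaving out RS input pool 1 gave 364 and 140, and leaving out RS input pool 2 gave 683 and 642. Without naive IP pool 1 the counts were 23 and 14, without naive IP pool 2 they were 39 and 32, without RS IP pool 1 they were 18 and 16, and without RS IP pool 2 they were 21 and 13. All 970 genes kept their direction in these 8 leave-one-out fits, and the smallest change in them was, for the median gene, 85.5% of that in all libraries. Called genes have changes that are large beside their spread, so a kept direction was largely set by the calling. With the pool as a block, which pairs the IP and the input of the same number, 51 genes were called higher and 27 lower, and 77 of these 78 were among the 970. After median-of-ratios scaling the split between higher and lower was 657 to 187, and after a correction for transcript length and GC content 145 to 247. In the leave-one-out fits the share of called genes carried by the input fell to 48.6% (18 of 37) without naive IP pool 1, 49.3% (35 of 71) without naive IP pool 2 and 17 of 34 without RS IP pool 2. It was 59.0% (46 of 78) with the pool as a block and 45.7% (16 of 35) without a trend of the prior variance. Of the 119 called genes that the naming rule allows, 33 were also called with the pool as a block, 107 in at least 1 of the leave-one-out fits and 12 in none, among them Fosb, Rrad, Per1, Slc1a2 and Tmem119.

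**Figure D2:**
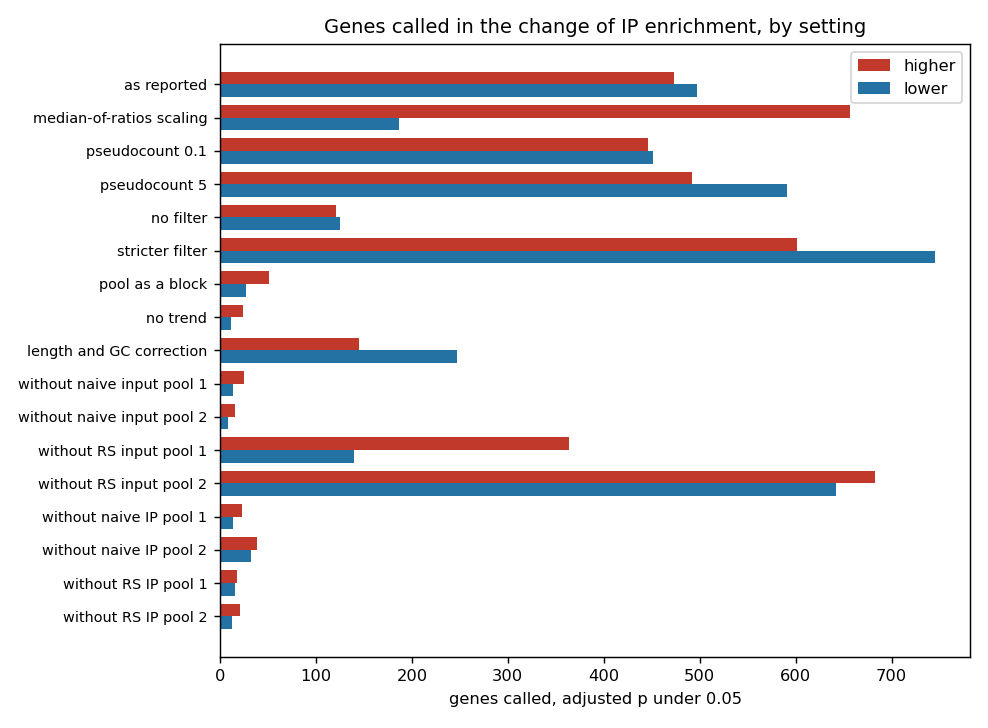
Number of genes called higher (red) or lower (blue) in the change of IP enrichment, from the analysis as reported (473 and 497) and from each alternative, on an axis that starts at 0. The counts drop to 24 to 71 in all when a naive library or an RS IP library is left out, and reach 1325 without RS input pool 2.

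The neuropeptide gene Nts rose in the IP. It encodes the precursor of neurotensin, a peptide that lowers food intake and body temperature when given to the brain, and it lies at chr10:102481756-102490418 (GRCm38, minus strand). Nts stood at 25.6 and 24.9 TPM in naive input, 19.8 and 21.6 in RS input, 31.4 and 29.8 in naive IP and 61.8 and 49.7 in RS IP (pools 1 and 2). Both RS IP pools were above the other 6 libraries, and both RS input pools below them. Its enrichment changed by 1.11 ± 0.15 (SE, n = 2 pools, adjusted p = 0.0169), of which 0.84 was the IP change (adjusted p = 0.00741) and -0.28 the input change (adjusted p = 0.0881). The ratio of IP over input was 0.27 in naive and 1.38 in RS mice. With the pool as a block its adjusted p was 0.0548, and it was called in 3 of the 8 leave-one-out fits, with changes of 0.96 to 1.27. It lost the call without either naive input pool, either naive IP pool or RS IP pool 1. After the length and GC correction the change was 0.94 (adjusted p = 0.0149). By size the change was carried by the IP, but after median-of-ratios scaling, with 0.82 in the IP and -0.42 in the input (adjusted p of the input change = 0.0383), it was shared. Because Nts, Fos and Fosb were the genes picked by the study from these libraries, their direction is no independent evidence.

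The letters just before the start of Nts are shown because Nts rose in the IP and because its promoter is well studied in rat, where an AP-1 site and cyclic AMP response elements act together. RefSeq promoters (GRCm38.p6) were searched on both strands, in the 250 bases before each start, for AP-1 (TGAGTCA), the cyclic AMP response element CRE (TGACGTCA), its core (TGACG, which each CRE also holds) and a palindromic glucocorticoid response element, GRE (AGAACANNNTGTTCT). Of the 14365 genes tested, 11208 matched the table by symbol, and 3.93% of these held AP-1, 3.02% CRE, 29.6% the CRE core and 0.00892% the GRE. The window of Nts (chr10:102490419-102490668, minus strand) follows with AP-1, which begins 207 bases before the start, and a CRE core on the other strand, 166 bases before it, in capitals.
Nts: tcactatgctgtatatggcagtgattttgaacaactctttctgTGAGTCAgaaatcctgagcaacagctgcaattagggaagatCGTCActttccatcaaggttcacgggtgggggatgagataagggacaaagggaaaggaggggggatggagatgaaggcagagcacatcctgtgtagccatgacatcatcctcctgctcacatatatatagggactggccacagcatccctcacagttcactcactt
Such matches describe letters and do not show a bound site. Of the 58 genes with higher enrichment carried by the IP, 53 matched the table: 4 held AP-1 (7.55%), 1 CRE (1.89%) and 17 the CRE core (32.1%), beside 29.6% of all matched genes for the CRE core.

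The other genes carried by the IP included regulators of growth arrest and the clock. Gadd45b, a stress-inducible gene that responds to neuronal activity, stood at 14.1 and 15.1 TPM in naive input, 21.9 and 24.2 in RS input, 30.6 and 30.6 in naive IP and 88.6 and 101 in RS IP. All RS values were above the naive ones of the same fraction, and the step was wider in the IP. Its enrichment rose by 0.97 ± 0.13 (SE, n = 2 pools, adjusted p = 0.0167), from an IP change of 1.60 and an input change of 0.62. Nfil3, a bZIP repressor linked to the circadian clock, stood at 24.6 and 25.4 TPM in naive input, 32.5 and 34.1 in RS input, 17.4 and 18.8 in naive IP and 51.2 and 48.8 in RS IP. Here naive IP lay below naive input and RS IP above RS input in both pools. The change was 1.02 ± 0.11 (SE, n = 2 pools, adjusted p = 0.00888), with 1.42 in the IP and 0.40 in the input, and it was called in 7 of the 8 leave-one-out fits, with changes of 0.96 to 1.07. It lost the call without naive input pool 2. With the pool as a block the adjusted p was 0.0396 for Gadd45b and 0.0396 for Nfil3.

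Btg2, an antiproliferative early gene, changed by 0.68 ± 0.11 (SE, n = 2 pools, adjusted p = 0.0195), and its level was 36.3 and 35.5 TPM in naive input, 46.3 and 48.8 in RS input, 13.2 and 14.5 in naive IP and 30.7 and 29.96 in RS IP. Its IP levels stayed below the input levels in both conditions, and the gap narrowed. Per1, a core clock gene, was at 3.11 and 3.85 TPM in naive input, 3.83 and 3.96 in RS input, 2.25 and 2.26 in naive IP and 5.04 and 5.47 in RS IP, with a change of 0.81 ± 0.18 (SE, n = 2 pools, adjusted p = 0.042) of which 0.94 was in the IP. Gadd45g, a relative of Gadd45b, changed by 0.58 (adjusted p = 0.0235), with 0.88 in the IP and 0.30 in the input. Its change was 0.37 (adjusted p = 0.0827) once corrected for length and GC. With the pool as a block the adjusted p was 0.0602 for Btg2, 0.0871 for Per1 and 0.0639 for Gadd45g. The IP also carried the changes of Rdh5, a retinol dehydrogenase, at 1.24 (adjusted p = 0.0187), and of Sptan1, which encodes the membrane skeleton protein alpha-II spectrin, at 1.18 (adjusted p = 0.00888). Sptan1 is an RNA with low capture, since its ratio was -2.03 in naive and -0.85 in RS mice.

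Lower enrichment carried by the IP was rarer, with 19 genes. Cant1, a calcium-activated nucleotidase, stood at 27.6 and 26.5 TPM in naive input, 51.9 and 35.9 in RS input, 37.3 and 25.03 in naive IP and 10.4 and 10.9 in RS IP. The RS IP pools were the lowest of the 8 libraries, while the naive IP pools differed between themselves. Its enrichment changed by -2.09 ± 0.29 (SE, n = 2 pools, adjusted p = 0.0169), with -1.44 in the IP. Ociad1, which encodes a protein of endosomes and mitochondria, stood at 400.0 and 360.2 TPM in naive input, 484 and 449.7 in RS input, 520.0 and 378 in naive IP and 209.6 and 206 in RS IP and changed by -1.39 ± 0.18 (SE, n = 2 pools, adjusted p = 0.0168), with -1.09 in the IP. Adora2a, an adenosine receptor of striatal neurons, stood at 54.3 and 60.5 TPM in naive input, 75.2 and 55.5 in RS input, 49.1 and 58.5 in naive IP and 30.8 and 30.8 in RS IP, so that both RS IP pools fell below all other libraries. Its change was -0.95 ± 0.20 (SE, n = 2 pools, adjusted p = 0.0376), and 0.0573 was its adjusted p with the pool as a block. Fam19a2, a secreted chemokine-like protein, and Spp1, osteopontin, changed by -0.70 and -0.71 (adjusted p = 0.0242 and 0.049; with the pool as a block, 0.07 and 0.0617), with input changes of 0.03 and 0.02.

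**Figure D3:**
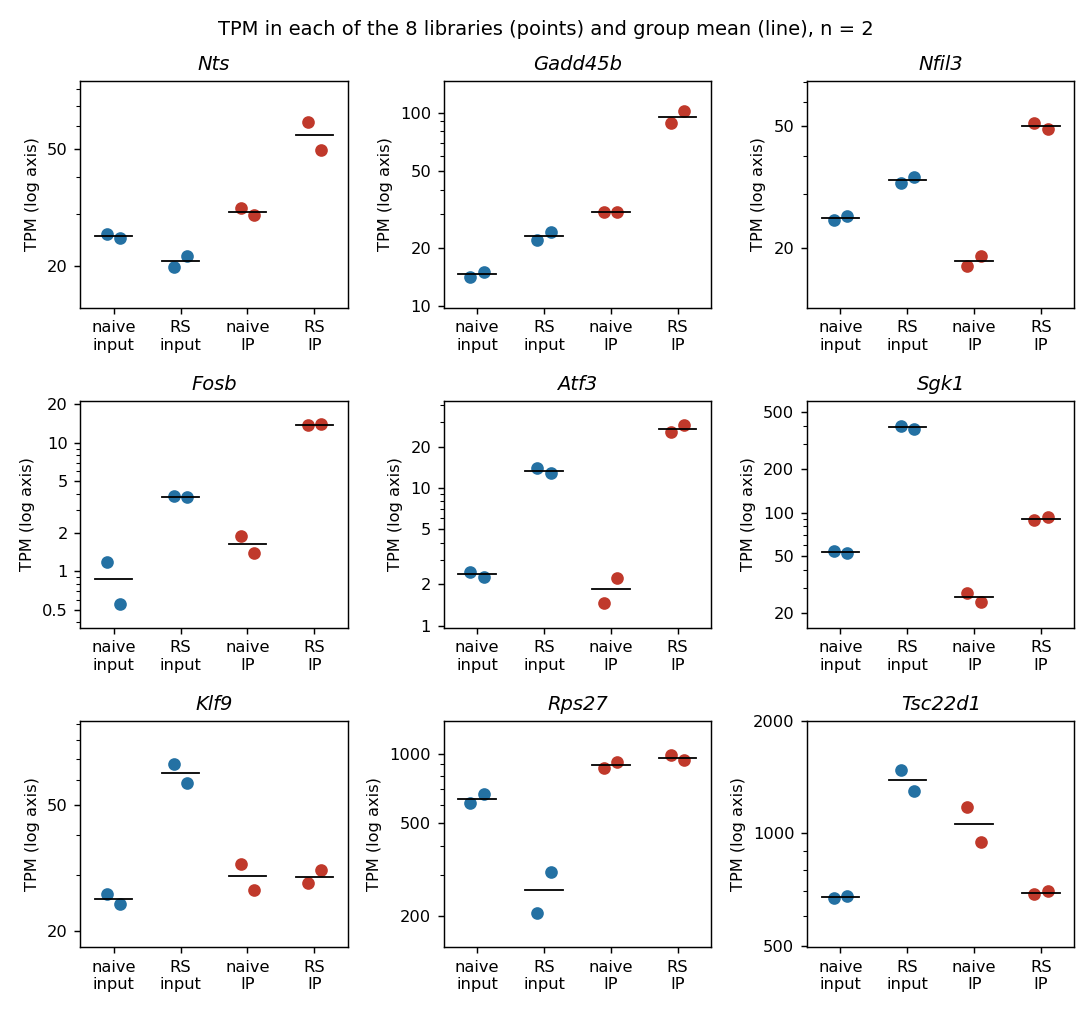
TPM of 9 genes in the 8 libraries, on log axes; points are pools, lines the mean of 2 pools, blue input and red IP. Nts, Gadd45b and Nfil3 step up mainly in the IP, Fosb and Atf3 in both fractions, Sgk1 more in input, Klf9 up and Rps27 down in input with a level IP, and Tsc22d1 up in input and down in IP.

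Immediate early genes, which neurons transcribe within minutes of firing, rose in both fractions, and enrichment rose for fewer of them. Of 38 tested, 28 rose in the IP and 29 in the input, none fell in either, and 9 rose in enrichment (4 carried by the IP, 5 shared). The median of the list, less that of all genes, was 1.06 in the IP, 0.57 in the input and 0.51 in enrichment, and 31 of the 38 had a change of enrichment above 0. The number of called members was 13 after median-of-ratios scaling, 8 after the length and GC correction, 2 with the pool as a block, and 0 to 6 in the leave-one-out fits. Members of this list were partly singled out by the study in these samples.

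Fos, the subunit of AP-1 that marks active neurons (chr12:85473890-85477274, plus strand), stood at 35.3 and 33.3 TPM in naive input, 86.1 and 83.2 in RS input, 24.4 and 28.9 in naive IP and 120.0 and 117 in RS IP. RS exceeded naive in both fractions, and IP went from below to above input. The change of enrichment was 0.84 ± 0.12 (SE, n = 2 pools, adjusted p = 0.0181), from 2.12 in the IP and 1.28 in the input. With the pool as a block the adjusted p was 0.0549, and Fos was called in 3 of the 8 leave-one-out fits, with changes of 0.72 to 0.95, namely those without naive IP pool 2 and without either RS input pool. Fosb, a relative of Fos, stood at 1.19 and 0.557 TPM in naive input, 3.85 and 3.78 in RS input, 1.88 and 1.38 in naive IP and 13.7 and 13.9 in RS IP. Its change was 1.11 ± 0.25 (SE, n = 2 pools, adjusted p = 0.0448), from 2.50 and 1.38, it was called in 0 of the 8 leave-one-out fits, with changes of 0.87 to 1.36, and its adjusted p was 0.0584 with the pool as a block. Atf3, a stress-induced bZIP factor, stood at 2.44 and 2.27 TPM in naive input, 13.9 and 12.8 in RS input, 1.46 and 2.23 in naive IP and 25.5 and 28.5 in RS IP, with a change of 1.22 ± 0.21 (SE, n = 2 pools, adjusted p = 0.0224) from 3.31 in the IP and 2.10 in the input.

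Rrad, a small GTPase that dampens calcium channels, changed by 1.23 ± 0.29 (SE, n = 2 pools, adjusted p = 0.0477), with 3.28 in the IP and 2.04 in the input. Junb, a partner of Fos in AP-1, changed by 0.68 ± 0.10 (SE, n = 2 pools, adjusted p = 0.0192), with 1.55 and 0.87. Rrad was called in 0 of the 8 leave-one-out fits, with changes of 0.97 to 1.498, and after the length and GC correction its change was 1.14 (adjusted p = 0.0944). The blocked adjusted p was 0.0608 for Atf3, 0.0493 for Rrad and 0.0606 for Junb. Other early genes rose in both fractions without a call of enrichment. Egr1, a zinc finger factor, stood at 110.4 and 114 TPM in naive input, 276 and 243 in RS input, 78.03 and 82.1 in naive IP and 178 and 184 in RS IP, so that its change of enrichment was -0.03 (adjusted p = 0.885) in spite of rises of 1.17 in the IP and 1.20 in the input. Nr4a1, an orphan nuclear receptor, had 1.77 and 1.39 (adjusted p of the difference = 0.0707), and Arc, which trims synaptic glutamate receptors, 1.40 and 0.98 (adjusted p = 0.0842).

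Promoter letters of early genes are shown because these genes moved together in both fractions. The CRE core TGACG was held by 19 of the 28 matched members of the list (67.9%, beside 29.6% of all matched genes). The full CRE was held by 3 of them (10.7%, beside 3.02%). It was also held by 5 of 56 matched cytosolic ribosomal protein genes (8.93%), a list without a call in the IP. Of the matched glucocorticoid-responsive genes 1 of 13 (7.69%) held it, and of the respiratory chain genes 4 of 61 (6.56%). The CRE core was held by 5 of the 7 matched genes with a called rise of enrichment, a shared class and the same sign in both fractions. This set includes the early genes Fos, Fosb, Atf3 and Junb, so it repeats part of the count above. Stretches of 30 bases around the match nearest the start follow for Fos (chr12:85473811-85473840, plus strand), Fosb (chr7:19310089-19310118, minus strand), Atf3 (chr1:191183334-191183363, minus strand), Junb (chr8:84978838-84978867, minus strand) and Btg2 (chr1:134079303-134079332, minus strand), with the CRE core, or the CRE in Btg2, in capitals. For Fosb the start used (chr7:19310045) is an inner one. The gene is annotated as chr7:19302696-19310118, so the stretch of Fosb lies inside it.
Fos: cagttccgcccagTGACGtaggaagtccat
Fosb: atggagttgcgggTGACGcaagcgcggggg
Atf3: cctggaagctattaatagcattaCGTCAgc
Junb: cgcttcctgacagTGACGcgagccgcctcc
Btg2: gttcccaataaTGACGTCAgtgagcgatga

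Glucocorticoid-responsive genes had calls of enrichment in both directions. Corticosterone, released in stress, acts through nuclear receptors that bind response elements in these genes. Of 14 tested, enrichment rose for 4 and fell for 3, while 7 rose in the IP, none fell in the IP, 9 rose in the input and 2 fell in the input. Of all genes tested, 3.29% rose and 3.46% fell in enrichment, 1.98% rose in the IP and 20.3% rose in the input. The called members were 1 higher and 2 lower with the pool as a block, 1 and 3 after the length and GC correction, and 0 to 3 each way in the leave-one-out fits. Sgk1, a kinase and classical target (chr10:21882184-21999903, plus strand), stood at 54.2 and 52.1 TPM in naive input, 397 and 381 in RS input, 27.9 and 23.9 in naive IP and 88.7 and 92.5 in RS IP. It rose in both fractions, with no overlap between RS and naive, and more steeply in the input: 2.85 against 1.77 in the IP. Its enrichment therefore fell by 1.08 ± 0.11 (SE, n = 2 pools, adjusted p = 0.00888) as a log2 change, from a ratio of -1.01 to -2.09, and it was called in 7 of the 8 leave-one-out fits, with changes of -1.19 to -0.97. It lost the call without naive input pool 2. Its adjusted p was 0.0319 with the pool as a block. Klf9, a zinc finger factor induced by glucocorticoids, stood at 26.1 and 24.2 TPM in naive input, 67.4 and 58.6 in RS input, 32.4 and 26.97 in naive IP and 28.2 and 31.03 in RS IP. The input pools separated and the IP pools did not, and the change of enrichment was -1.29 ± 0.16 (SE, n = 2 pools, adjusted p = 0.0141).

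Fkbp5, a co-chaperone of the glucocorticoid receptor, stood at 20.5 and 19.1 TPM in naive input, 31.1 and 27.4 in RS input, 12.4 and 12.7 in naive IP and 9.37 and 9.86 in RS IP and changed by -0.89 ± 0.13 (SE, n = 2 pools, adjusted p = 0.0187), with an input change of 0.54 and an IP change of -0.35. Rasd1, a Ras-like protein named for its induction by dexamethasone and not on the list, stood at 46.05 and 45.1 TPM in naive input, 110.3 and 82.8 in RS input, 68.3 and 58.1 in naive IP and 49.6 and 54.03 in RS IP and changed by -1.33 ± 0.19 (SE, n = 2 pools, adjusted p = 0.0178). Blocked by pool, the adjusted p was 0.0396 for Klf9, 0.0573 for Fkbp5 and 0.0517 for Rasd1. The metallothionein gene Mt2, a metal-binding stress protein, went the other way and changed by 0.69 ± 0.10 (SE, n = 2 pools, adjusted p = 0.0187), from 0.38 in the IP and -0.31 in the input. After the length and GC correction its change was 0.19 (adjusted p = 0.198). A GRE stretch is shown for Sgk1 because it was the only 1 of the 13 matched list members, and of all matched genes tested, with this palindrome before a start. The 30 bases (chr10:21993693-21993722, plus strand) belong to 1 of several RefSeq starts of the gene, with the palindrome in capitals, 189 bases before that start.
Sgk1: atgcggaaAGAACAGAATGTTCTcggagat

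A set of genes moved in opposite directions in IP and input. Tsc22d1, a leucine zipper factor of the TSC22 family (chr14:76414961-76507765, plus strand), stood at 669 and 678 TPM in naive input, 1484 and 1299 in RS input, 1178 and 947 in naive IP and 688 and 699.9 in RS IP. RS input was above and RS IP below its naive counterpart, so its RNA was enriched in naive mice (0.65) and depleted in RS mice (-0.999). The change was -1.65 ± 0.14 (SE, n = 2 pools, adjusted p = 0.00456), called in 8 of the 8 leave-one-out fits, with changes of -1.80 to -1.49, and the adjusted p was 0.0185 with the pool as a block. Acta2, smooth muscle actin, turned the other way, at 19.8 and 20.1 TPM in naive input, 13.8 and 14.8 in RS input, 15.6 and 17.1 in naive IP and 29.9 and 28.9 in RS IP. Its enrichment changed by 1.26 ± 0.12 (SE, n = 2 pools, adjusted p = 0.00521), with 0.81 in the IP and -0.45 in the input, called in 8 of the 8 leave-one-out fits, with changes of 1.20 to 1.33. Tagln, transgelin of smooth muscle, changed by 1.12 (adjusted p = 0.0123) with the same signs. Cox6b2, a cytochrome oxidase subunit, stood at 11.9 and 10.9 TPM in naive input, 4.72 and 4.68 in RS input, 20.01 and 15.7 in naive IP and 28.4 and 31.7 in RS IP and changed by 1.85 ± 0.18 (SE, n = 2 pools, adjusted p = 0.00604). Slc38a7, a lysosomal glutamine transporter, stood at 8.73 and 9.1 TPM in naive input, 23.9 and 23.6 in RS input, 12.4 and 7.8 in naive IP and 4.66 and 4.92 in RS IP and changed by -2.23 ± 0.25 (SE, n = 2 pools, adjusted p = 0.0107).

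Ribosomal protein genes were the list with the most calls of higher enrichment, and every 1 of these calls lay in the input. Of 76 cytosolic ribosomal protein genes tested, 56 rose in enrichment and none fell, all 56 carried by the input. In the input 74 of the 76 fell, and in the IP none was called. Less the median of all genes, the list's median was 0.73 in enrichment, -0.07 in the IP and -0.82 in the input. Their summed TPM was 28825 and 28774 in naive input and 16201 and 19933 in RS input, against 38088 and 38151 in naive IP and 36663 and 36915 in RS IP. The RS input pools differed from each other more than the pools of any other group. The called members numbered 0 to 73 in the leave-one-out fits, 7 with the pool as a block and 10 after the length and GC correction, where the median over the list, not less that of all genes, was 0.30 in place of 0.62. Rps6, the protein whose phosphorylated form the antibody binds, changed by 0.34 ± 0.08 (SE, n = 2 pools, adjusted p = 0.045), with -0.05 in the IP and -0.38 in the input, and by 0.01 (adjusted p = 0.952) after the length and GC correction. Many processed copies of these genes exist in the mouse genome, and how reads were shared among copies is unknown.

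Rps27 stood at 609 and 668 TPM in naive input, 206 and 309.6 in RS input, 869.9 and 921 in naive IP and 986 and 934 in RS IP. Its RS input pools were the lowest of the 8 libraries, and its 4 IP libraries lay close together. The change was 1.44 ± 0.22 (SE, n = 2 pools, adjusted p = 0.0192), from -1.33 in the input. Rpl13a changed by 0.78 (adjusted p = 0.0107) and Rps21 by 0.96 (adjusted p = 0.0181). After the length and GC correction the change was 0.89 (adjusted p = 0.0661) for Rps27 and 0.33 (adjusted p = 0.191) for Rps21. Blocked by pool, the adjusted p was 0.0517 for Rps27, 0.0371 for Rpl13a and 0.0493 for Rps21. RNAs of this family typically begin with a C and a run of pyrimidines, the 5′ TOP motif, through which mTOR signalling controls their translation. The starts of 3 of them are shown because 74 of the 76 fell in the input and the motif is a hallmark of the family. A C followed by at least 4 pyrimidines stood at an annotated start in 13 of the 56 matched members (23.2%) and in 3.06% of all matched genes tested. Each line gives 10 bases before and 20 from the annotated start, with the run of pyrimidines at the start in capitals, for Rps27 (chr3:90213629-90213658, minus strand), Rps21 (chr2:180257369-180257398, plus strand) and Rpl13a (chr7:45128726-45128755, minus strand). Rps21 has another annotated start, further downstream, that does not begin with such a run and is not shown. In Rpl13a a pyrimidine run lies a few bases past the annotated start and is in lower case.
Rps27: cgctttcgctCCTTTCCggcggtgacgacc
Rps21: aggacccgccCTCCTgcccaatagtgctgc
Rpl13a: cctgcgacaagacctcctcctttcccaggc

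Genes of the mitochondrial respiratory chain also had calls of higher enrichment that lay in the input. Of 74 tested, 41 rose in enrichment, all carried by the input, and none fell. In the input 59 fell and 5 rose, and none was called in the IP. The list's median, less that of all genes, was 0.49 in enrichment, -0.04 in the IP and -0.62 in the input. After the length and GC correction 9 members were called, with the pool as a block 2, and in the leave-one-out fits 0 to 52. The correction took the median over the list, not less that of all genes, from 0.38 to 0.05. Cox6c, a small subunit of cytochrome oxidase, stood at 1020 and 974 TPM in naive input, 552 and 658 in RS input, 2221 and 2206 in naive IP and 2327 and 2265 in RS IP, so that only the input moved. Its change was 0.78 ± 0.10 (SE, n = 2 pools, adjusted p = 0.0168), and 0.76 was that of Atp5j2, an ATP synthase subunit (adjusted p = 0.0176). Of 51 mitochondrial ribosomal protein genes 13 rose in enrichment and none fell. The leave-one-out fits called 0 to 21 of them, the blocked fit none and the length and GC correction 2.

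Among 39 translation factors, 6 rose and 1 fell in enrichment, beside 3.29% and 3.46% of all genes tested. Eef1a1, the elongation factor that brings tRNA to the ribosome, stood at 2267 and 2292 TPM in naive input, 1244 and 1510 in RS input, 1453 and 1506 in naive IP and 1423 and 1373 in RS IP. Its IP stayed level while its input fell, by -0.73 as a log2 change, and its enrichment changed by 0.65 ± 0.11 (SE, n = 2 pools, adjusted p = 0.0231). Eif3b, a scaffold subunit of initiation factor 3, changed by -0.52 ± 0.09 (SE, n = 2 pools, adjusted p = 0.0242) through an input change of 0.53. Blocked by pool, the adjusted p was 0.0579 for Eef1a1 and 0.072 for Eif3b.

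The input changes followed transcript length, and the IP changes did so far less. Across the 14237 genes with a length, which are not independent replicates and share the 8 libraries, Spearman's rho with length was 0.492 for the input change, 0.119 for the IP change and -0.405 for the change of enrichment. The median length was 914 nt for genes whose higher enrichment was carried by the input and 4255 nt for those whose lower enrichment was, beside 2969 nt for all genes tested. It was 1711.5 nt for genes raised by the IP. Genes were also cut into 5 bins of near-equal number by length. In the bin of the shortest (63 to 1623 nt) the median change was -0.17 in the input, -0.03 in the IP and 0.15 in enrichment, and 358 genes were called higher and 26 lower. In the bin of the longest, from 4882 nt, the medians were 0.28, 0.03 and -0.23, and 13 genes were called higher and 160 lower. Within single libraries, the rank correlation of length with a gene's deviation from its mean over libraries was 0.298 and 0.318 in naive input, 0.571 and 0.540 in RS input, -0.484 and -0.456 in naive IP and -0.455 and -0.447 in RS IP. RS input therefore stood apart from naive input in this respect, in both pools, while the IP groups did not. The source of this difference was not tested. The labels give RNA integrity numbers above 8 for the study as a whole, whereas the study's methods state a limit lower than this.

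**Figure D4:**
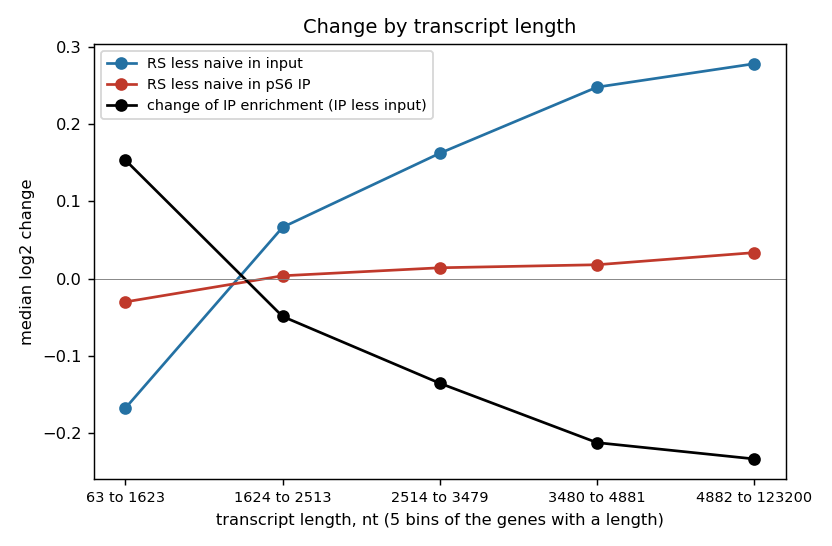
Median log2 change in the input (blue), in the IP (red) and in enrichment (black), on the y axis, for 5 bins of the 14237 genes by transcript length in nt, on the x axis. The input median climbs from -0.17 to 0.28 with length, the IP median stays between -0.03 and 0.03, and the enrichment median falls from 0.15 to -0.23.

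Genes outside these families were also carried by the input. Chtf8, part of a clamp loader for DNA replication, stood at 18.96 and 19.5 TPM in naive input, 105 and 90.2 in RS input, 14.2 and 13.2 in naive IP and 12.4 and 12.5 in RS IP. Both RS input pools lay far above the other libraries, and the change was -2.41 ± 0.13 (SE, n = 2 pools, adjusted p = 2.67e-04), called in 8 of the 8 leave-one-out fits, with changes of -2.51 to -2.30. Anp32a, a histone chaperone, stood at 30.2 and 32.1 TPM in naive input, 87.5 and 72.4 in RS input, 25.5 and 24.4 in naive IP and 22.5 and 21.6 in RS IP and changed by -1.50 ± 0.14 (SE, n = 2 pools, adjusted p = 0.00513). Amd1, which makes the donor for polyamine synthesis, changed by -1.53 ± 0.25 (SE, n = 2 pools, adjusted p = 0.0206) at 5.03 and 4.86 TPM in naive input, 16.4 and 15.98 in RS input, 29.99 and 22.4 in naive IP and 30.7 and 21.8 in RS IP. Coro2b, an actin-binding coronin, and Rap2b, a Ras-like GTPase, changed by -1.69 and -1.45 (adjusted p = 0.0177 and 0.0153).

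Falls in the input were shown by Prpf19, a spliceosome protein, which stood at 73.05 and 73.8 TPM in naive input, 22.4 and 29.6 in RS input, 41.8 and 44.7 in naive IP and 45 and 41.8 in RS IP. It was depleted in naive mice (-0.75) and enriched in RS mice (0.73) with an IP change of 0.01, and its enrichment changed by 1.48 ± 0.17 (SE, n = 2 pools, adjusted p = 0.011). Its transcript is 6035 nt long, and the change was 1.61 (adjusted p = 0.0122) after the length and GC correction. Stx4a, a fusion protein of the plasma membrane, stood at 129 and 136 TPM in naive input, 51.7 and 63.8 in RS input, 58.4 and 60.04 in naive IP and 63.7 and 70.1 in RS IP and changed by 1.36 ± 0.14 (SE, n = 2 pools, adjusted p = 0.00888). Crip1, a small LIM protein, stood at 33.7 and 35.1 TPM in naive input, 13.1 and 12.99 in RS input, 56.6 and 56.7 in naive IP and 52.5 and 50.9 in RS IP and changed by 1.20 ± 0.09 (SE, n = 2 pools, adjusted p = 0.00292), called in 8 of the 8 leave-one-out fits, with changes of 1.17 to 1.23. The noncoding Snhg9, a host of small nucleolar RNA, had the highest change among the genes that the naming rule ranks by size, which leaves out clone, predicted and small RNA symbols, 2.57 ± 0.50 (SE, n = 2 pools, adjusted p = 0.0301), at 55.1 and 40.1 TPM in naive input, 14.8 and 7.31 in RS input, 83.2 and 43.5 in naive IP and 89.8 and 81.5 in RS IP. It was called in 2 of the 8 leave-one-out fits, with changes of 2.11 to 3.03, and its change was 1.71 (adjusted p = 0.0747) after the length and GC correction. Its naive IP pools and its RS input pools each differed by about 2-fold.

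Calls that held in all 8 leave-one-out fits numbered 18, of which 11 were higher and 7 lower. These genes were picked out after their values were seen. They include the genes Tsc22d1, Acta2, Cox6b2, Crip1, Chtf8 and Anp32a above, and 8 small RNA genes of the Mir and Snor type, whose values often stand at 0 in a whole group. Wfdc2, which encodes a secreted protease-inhibitor-like protein, was listed at 0 in all 4 naive libraries and stood at 0.236 and 0.468 TPM in RS input and 6.13 and 5.82 in RS IP. It passed the filter only through the RS IP libraries. H2-T9, a nonclassical class I gene, was listed at 0 in 6 libraries and stood at 16.8 and 24.4 TPM in RS input. H2-T9 passed the filter only through the RS input libraries. Values of 0 in a whole group show no spread between pools, so for such genes a call in all 8 fits follows largely from the zeros. H2-T9 belongs to a family of near-identical copies, so reads may have been assigned to it in some libraries and to a relative in others, and its value is uncertain.

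Neuropeptide genes had calls of enrichment in both directions. Of 29 tested, 7 rose in enrichment (2 carried by the IP, 3 by the input, 2 shared) and 2 fell. In the IP 4 rose and 1 fell, and in the input 5 rose and 7 fell. Beside these counts, 3.29% of all genes tested rose and 3.46% fell in enrichment. The shares that rose and fell were 1.98% and 0.327% in the IP and 20.3% and 8.21% in the input. The median of the list, less that of all genes, was 0.58 in enrichment, 0.17 in the IP and -0.35 in the input. Called members numbered 9 higher and 1 lower after median-of-ratios scaling, 3 and 2 after the length and GC correction, 1 and 0 with the pool as a block, and 0 to 9 higher in the leave-one-out fits. The median transcript of the list is 1248 nt long.

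Cartpt, precursor of the appetite-lowering peptide CART, stood at 167 and 159.5 TPM in naive input, 91.1 and 108 in RS input, 237 and 226 in naive IP and 262 and 258 in RS IP. RS input was below naive input in both pools, IP moved little, and the change was 0.88 ± 0.11 (SE, n = 2 pools, adjusted p = 0.0153) with -0.71 in the input. It was called in 2 of the 8 leave-one-out fits, with changes of 0.76 to 1.002, those without either RS input pool, and the adjusted p was 0.0403 with the pool as a block. Cartpt is an example of a full CRE before an annotated start of a gene that did not rise in the IP. Its 30 bases (chr13:99900777-99900806, minus strand) are given for comparison with those of Btg2, with the CRE in capitals, 112 bases before that start. The start (chr13:99900683) is an inner one, and the stretch lies inside the annotated gene (chr13:99898483-99910179).
Cartpt: ccggcgggcatTGACGTCAaacggcagcgg
Sst, somatostatin, stood at 529 and 536 TPM in naive input, 416 and 469 in RS input, 839.9 and 815 in naive IP and 888 and 913 in RS IP, and its change of 0.39 ± 0.08 (SE, n = 2 pools, adjusted p = 0.0358) was 0.03 (adjusted p = 0.821) after the length and GC correction and had an adjusted p of 0.064 with the pool as a block. Without any 1 of the 4 naive libraries or the 2 RS IP libraries Sst was not called, with changes between 0.31 and 0.48 over the 8 fits.

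Gal, galanin, changed by 0.56 ± 0.09 (SE, n = 2 pools, adjusted p = 0.021), with 0.28 in the IP and -0.28 in the input. Tac2, neurokinin B, changed by 0.72 (adjusted p = 0.0245) and Npy, neuropeptide Y, by 0.47 (adjusted p = 0.044). After the length and GC correction the change was 0.21 (adjusted p = 0.348) for Gal and 0.38 (adjusted p = 0.0874) for Tac2, and Npy turned to -0.01 (adjusted p = 0.957). Pmch, melanin-concentrating hormone, changed by 1.62 ± 0.22 (SE, n = 2 pools, adjusted p = 0.0169) and was carried by the IP, at the low level of 2.42 and 2.56 TPM in naive input, 1.89 and 2.1 in RS input, 0.38 and 0.794 in naive IP and 3.06 and 3.21 in RS IP. The opioid precursors went the other way. Pdyn, prodynorphin, stood at 137 and 134 TPM in naive input, 169.7 and 158 in RS input, 158 and 143 in naive IP and 115 and 115 in RS IP, rising in input and falling in IP, and changed by -0.65 ± 0.09 (SE, n = 2 pools, adjusted p = 0.0169). Penk, proenkephalin, stood at 1373 and 1359 TPM in naive input, 1837 and 1841 in RS input, 1859 and 1817 in naive IP and 2012 and 2017 in RS IP and changed by -0.30 ± 0.04 (SE, n = 2 pools, adjusted p = 0.0188), with an input change of 0.43. Blocked by pool, the adjusted p of Gal, Tac2, Npy, Pmch, Pdyn and Penk was 0.0584, 0.0566, 0.0937, 0.0516, 0.0516 and 0.0606. None of 25 peptide receptors was called in enrichment, where 3 rose in the IP and 2 in the input, beside 1.98% and 20.3% of all genes tested. Glp1r, the receptor of glucagon-like peptide 1, changed by -0.42 ± 0.24 (SE, n = 2 pools, adjusted p = 0.307) and Mc3r, a melanocortin receptor, by 0.09 ± 0.26 (SE, n = 2 pools, adjusted p = 0.867).

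The called pan-neuronal, transmitter receptor and ion channel genes were all carried by the input, as were 77.1% of all called genes. The markers of septal GABAergic neurons, which define the labelled tissue, had 15 of 16 members tested and a summed TPM of 589 and 594 in naive input, 688 and 648 in RS input, 465 and 472 in naive IP and 486 and 479 in RS IP. None of the 15 was called in enrichment, and Slc32a1, the vesicular GABA transporter, changed by 0.02 ± 0.17 (SE, n = 2 pools, adjusted p = 0.949) at 7.17 and 6.66 TPM in naive input, 4.99 and 6.07 in RS input, 7.1 and 7.79 in naive IP and 5.83 and 6.26 in RS IP. Of 20 pan-neuronal genes 1 rose and 4 fell, of 29 transmitter receptor genes 4 fell, and of 23 ion channel genes 2 fell, while in the input 11, 11 and 7 of them rose. Of all genes tested, 3.29% rose and 3.46% fell in enrichment, and 20.3% rose in the input. Gria2, an AMPA receptor subunit, stood at 134 and 143 TPM in naive input, 199 and 188 in RS input, 115 and 116 in naive IP and 100.4 and 102 in RS IP and changed by -0.67 ± 0.08 (SE, n = 2 pools, adjusted p = 0.0134). After median-of-ratios scaling the calls were 2 higher and 0 lower for pan-neuronal genes, 3 lower for the receptors and 0 for the channels. After the length and GC correction 4 pan-neuronal genes, 2 receptors and 0 channels were called lower, and none higher. The median transcript is 5192 nt long for the receptors and 8383 nt for the channels. With the pool as a block 2 of the receptors were called lower and none of the pan-neuronal or channel genes was called.

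Striatal markers lost enrichment in 3 of 10 cases, beside 3.46% of all genes tested. In the input 6 of the 10 rose, beside 20.3%, and in the IP 1 fell, beside 0.327%. The 3 with lower enrichment were Adora2a, described above, Drd1, the D1 dopamine receptor, at -0.70 (adjusted p = 0.027), and Ppp1r1b, the phosphatase inhibitor DARPP-32, at -0.44 (adjusted p = 0.0169). None of these was called with the pool as a block (adjusted p = 0.07 for Drd1 and 0.0573 for Ppp1r1b), and the leave-one-out fits called 0 to 4 members of the list. Corrected for length and GC, Adora2a changed by -0.89 (adjusted p = 0.0661). The summed TPM of the 10 genes was 2011 and 2076 in naive input, 2802 and 2654 in RS input, 2453 and 2404 in naive IP and 2326 and 2453 in RS IP. In pooled tissue, more cells of a type and more RNA per cell cannot be told apart. None of 6 septal cholinergic markers was called.

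Of 15 oligodendrocyte genes 4 fell in enrichment, beside 3.46% of all genes tested, among them Trf, the iron carrier transferrin, which stood at 802 and 833 TPM in naive input, 1417 and 1275 in RS input, 343 and 341 in naive IP and 375 and 387 in RS IP and changed by -0.56 ± 0.08 (SE, n = 2 pools, adjusted p = 0.0173). Mal and Mbp, myelin genes, changed by 0.02 and -0.18 (adjusted p = 0.931 and 0.12). The summed TPM of the 15 genes was 7853 and 7797 in naive input, 10343 and 9606 in RS input, 3042 and 2982 in naive IP and 3153 and 3220 in RS IP. Of 15 microglial genes 2 fell, Tmem119 and Cx3cr1 (-0.83 and -0.90), and of 15 astrocyte genes 2 rose and 1 fell, while 9 rose in the IP and 10 in the input. Of all genes tested, 3.29% rose in enrichment, 1.98% rose in the IP and 20.3% rose in the input. Gfap, the astrocyte filament, changed by -0.02 ± 0.09 (SE, n = 2 pools, adjusted p = 0.921). Slc1a2, the main glial glutamate transporter, stood at 46.5 and 45.5 TPM in naive input, 50.4 and 45.97 in RS input, 50.8 and 61.3 in naive IP and 85.4 and 91.9 in RS IP and changed by 0.59 ± 0.14 (SE, n = 2 pools, adjusted p = 0.0448), carried by the IP. The blocked adjusted p was 0.0548 for Trf, 0.0719 for Tmem119, 0.0584 for Cx3cr1 and 0.0908 for Slc1a2, and no member of these 3 lists was called in that fit. Cx3cr1 changed by -0.80 (adjusted p = 0.0569) with the length and GC correction.

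Many choroid plexus genes rose in both fractions. This epithelium of the ventricles, next to the septum, is defined by Ttr, the thyroid hormone carrier. Of 19 genes tested, 13 rose in the IP, 10 in the input and 6 in enrichment (3 carried by the IP, 3 shared), and none fell. The called members in enrichment numbered 1 with the pool as a block and 0 to 7 in the leave-one-out fits. The list's summed TPM was 161 and 148 in naive input, 541 and 593 in RS input, 134 and 130.04 in naive IP and 2341 and 2353 in RS IP. Ttr stood at 7.62 and 9.32 TPM in naive input, 259 and 309 in RS input, 29.03 and 29.1 in naive IP and 2009 and 2029 in RS IP, and its enrichment changed by 1.16 ± 0.15 (SE, n = 2 pools, adjusted p = 0.0153), from 6.07 in the IP and 4.91 in the input. Kcne2, a potassium channel subunit of this epithelium, stood at 0.216 and 0.525 TPM in naive input, 2.73 and 3.15 in RS input, 0.0915 and 0.387 in naive IP and 9.72 and 8.86 in RS IP and changed by 1.53 ± 0.25 (SE, n = 2 pools, adjusted p = 0.0214). Calml4, a calmodulin-like protein, stood at 13.2 and 9.83 TPM in naive input, 8.5 and 15.2 in RS input, 5.89 and 4.77 in naive IP and 26.4 and 25.1 in RS IP, with a change of 2.09 ± 0.34 (SE, n = 2 pools, adjusted p = 0.0215); its RS input pools differed by almost 2-fold, and the blocked adjusted p was 0.0396 for Ttr, 0.0517 for Kcne2 and 0.0516 for Calml4. How much choroid plexus tissue was in each pool is unknown, and its part in other genes that rose in the IP was not tested. Of 10 meningeal fibroblast genes 2 fell and 1 rose in the IP, 2 fell and 1 rose in the input, and none was called in enrichment. The summed TPM of this list fell in both fractions. It was 1966 and 1960.5 in naive input, 1183 and 1255 in RS input, 5820 and 5627 in naive IP and 3199 and 3300 in RS IP.

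**Figure D5:**
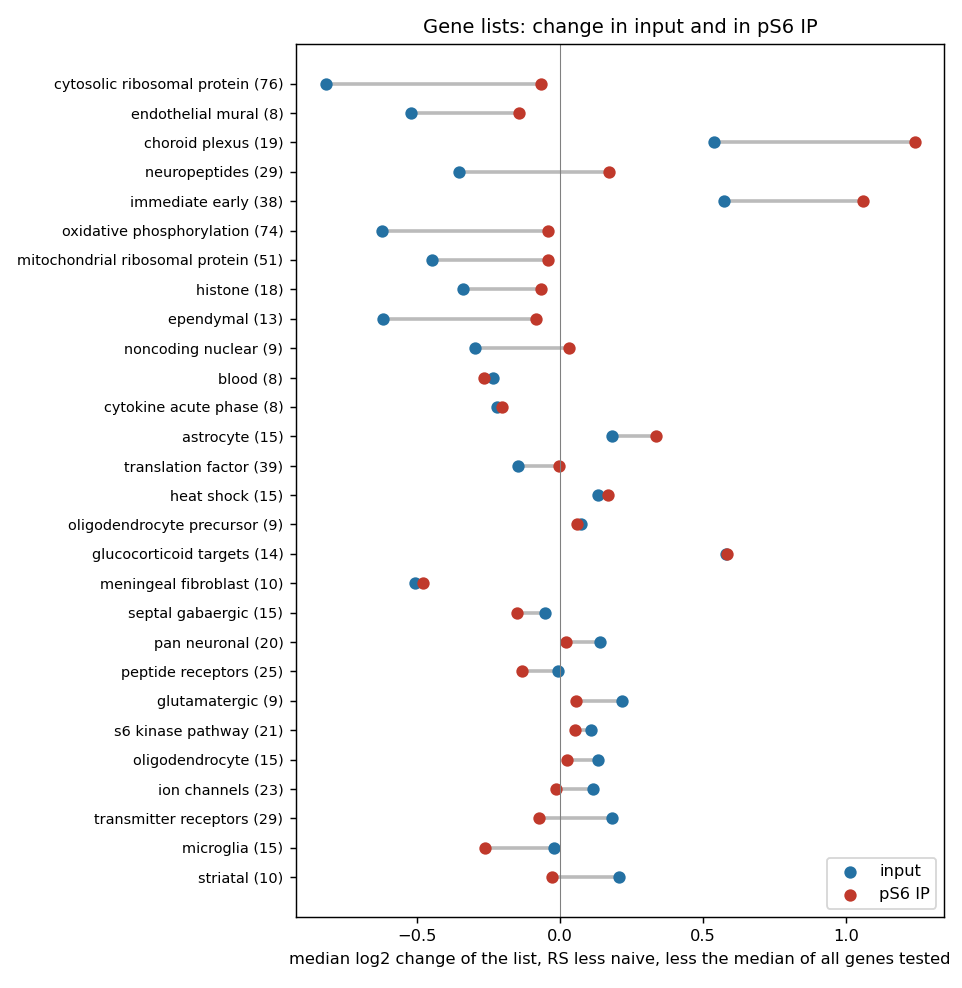
Median change from naive to RS in the input (blue) and in the IP (red), as log2 differences less the median of all genes tested, for the gene lists with at least 8 genes tested (number in brackets), ordered by the change of enrichment. Ribosomal protein and respiratory chain genes have input medians of -0.82 and -0.62 with IP medians near 0, and early genes and choroid plexus genes have IP medians of 1.06 and 1.24 above their input medians of 0.57 and 0.54.

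The remaining lists are read beside the 3.29% of all genes called higher and the 3.46% called lower. Of 15 heat shock genes 2 rose in enrichment, of 18 histone genes 1 rose and 1 fell, of 13 ependymal genes 1 rose, and of 8 blood genes 1 fell. Of 21 genes of the S6 kinase pathway 1 rose, Rps6, and 1 fell. None of the oligodendrocyte precursor genes or the cytokine genes tested was called.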

How the data were processed

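Input and pS6 IP RNA of 2 pools per condition were measured in 8 libraries. The authors deposited 1 column per library that carries the name FPKM, but each column sums to the fixed total of the TPM scale, so the deposited values were taken as TPM. The labels name STAR and DESeq2, the study's methods TopHat and Cufflinks, all with mm10 (GRCm38), and which made these columns is not stated. Sequencing depth is unknown, and precision rests on the spread between 2 pools. Symbols turned into dates (0.148% to 0.283% of the TPM) were left out. Genes that reached 1 TPM in 2 or more libraries were kept, log2(TPM + 1) was fitted with 1 mean per group in limma 3.58.1 (R 4.3.3; eBayes with trend, 4 residual and 3.92 prior degrees of freedom), and calls were made at an adjusted p under 0.05 (two-sided, Benjamini-Hochberg).

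Within a condition, input and IP of equal number were taken as 1 pool. The labels say that input was saved from the tissue before the IP and number both, but not that the numbers match. Their deviations correlated with r of -0.0637 (naive) and -0.0457 (RS) across genes. The pool as a block (2 residual degrees of freedom) was an alternative, beside scaling, pseudocount, filter, trend, length and GC, and leaving out each library. Lengths and GC are those of the longest GENCODE vM21 transcript (14237 genes, 99.1%).

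The naming rule allowed a set of genes (Nts, Fos, Fosb, Sst, Cartpt, Glp1r, Mc3r, Slc32a1, Gfap, Mal, Mbp), up to 12 genes each way with the largest called change (mean TPM 5 or more; clone, Rik, Gm, LOC, Mir and Snor symbols left out), up to 5 of each class, up to 4 members of each gene list, and all early genes and neuropeptides; some of these are not reported here. Members and lists were chosen with earlier results of these data known, so lists are described without a test.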

Additional observations from a re-analysis of the deposited data

Results flagged for a closer look

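The ratio of IP over input differed between RS and naive mice, by the interaction term of limma, for 473 genes that rose and 497 that fell. Among the genes that the naming rule always names, the log2 change of enrichment was 1.11 for Nts, 0.84 for Fos, 1.11 for Fosb, 0.39 for Sst and 0.88 for Cartpt. Among the largest called rises of genes averaging 5 TPM or more, with clone, predicted and small RNA symbols left out, were 2.57 for Snhg9, 2.09 for Calml4, 1.91 for Cox7a1, 1.85 for Cox6b2, 1.53 for Dnajb5, 1.48 for Prpf19, 1.46 for Eml2, 1.44 for Rps27, 1.40 for Echdc2, 1.36 for Stx4a and 1.32 for Rpl31-ps12, the last of which is a processed copy that shares sequence with Rpl31. The largest called falls under the same limits were -4.41 for H2-T9, -2.41 for Chtf8, -2.23 for Slc38a7, -2.09 for Cant1, -1.69 for Coro2b, -1.67 for Arl10, -1.65 for Tsc22d1, -1.53 for Amd1, -1.50 for Anp32a, -1.45 for Rap2b, -1.42 for Dok6 and -1.39 for Ociad1.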

How the results depend on the processing

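Counts of genes depended strongly on the setting. With the replicate block (the pool), 51 genes rose and 27 fell, 28 and 19 of them at least 2-fold; by class, 11, 28 and 12 higher genes and 2, 18 and 7 lower genes were carried by the IP, by the input or shared. Without trend the counts were 24 and 11 (21 and 10 at least 2-fold; by class 8, 9 and 7 higher, 0, 7 and 4 lower), and 208 genes were called in the IP. Without a filter they were 121 and 125 (33 and 21; by class 25, 73 and 23, then 9, 91 and 25). The length and GC correction gave 145 and 247 (39 and 30; by class 38, 78 and 29, then 12, 177 and 58) and 2687 genes in the input. Median-of-ratios scaling gave 187 lower genes (28 at least 2-fold; 116 carried by the input, 54 shared). A pseudocount of 5 gave 39 and 20 genes of at least 2-fold, and the stricter filter 31 lower genes of at least 2-fold and 598 lower genes carried by the input. A size ratio of 3 moved the classes to 37 (IP) and 99 (shared) higher and to 11 and 161 lower, classes by calls to 36 and 35 higher and 12 and 8 lower, and changes less the median to 41 lower genes carried by the IP.

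Leaving out 1 library gave 16 to 683 higher and 8 to 642 lower genes, 14 to 138 and 8 to 73 of at least 2-fold. Carried by the IP were 5 to 53 higher and 0 to 17 lower genes, by the input 7 to 566 and 7 to 531, and shared 4 to 64 and 1 to 94. In the IP alone 103 to 362 genes were called and in the input alone 1744 to 3864. Of 125 named genes over 16 alternatives, the only change of sign was Npy, at -0.010 with the length and GC correction. The blocked, trend and filter settings leave a gene's estimate as it is, so no sign could change there. Most of these genes were picked as called, with changes large beside their spread, so a change of sign was unlikely in the other fits too.

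With 2 pools a group and 4 residual degrees of freedom, a call rests largely on variance borrowed from other genes, and a fit with 1 library fewer has 3. The blocked fit has 2 residual degrees of freedom, so a call lost in it does not show a weaker effect. Depth is unknown, and no limit set by read number can be given.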
